A study of Thermothelomyces thermophilus with 49 samples.

Results

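The 34 genes described here are a module of *T. thermophilus* genes with a moderate response to cellulose in the parental strain and no such response in the strains that lack clr1 or clr2. They were chosen by measured values, from 9292 genes in the count table. Counts were scaled to a common library total (CPM), and d, the change from steady state for a strain and time, was taken as a difference of log2 values of the mean of 2 cultures plus 1 CPM. A member had a highest group mean of 10 CPM or more, a d of at least 1 at 0.5 h and a mean d over 4 times from 1 to 3 in the parental strain, and a d under 0.7 at every time in both deletion strains. Of the 9292 genes, 7661 met the limit on the level, 206 of these met both limits in the parental strain, and 36 also stayed under the limit in the deletion strains. Of these, 2 belong to 6 genes that the rule leaves out by name. The 34 that remained are all protein-coding, and all passed the filter on low counts of the tests below. The same limits on CPM normalized by the TMM method gave 56 genes, 34 of them the members.

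Polyadenylated RNA was sequenced from mycelium of 4 strains in 6 states, with 2 bioreactor cultures per strain and 48 libraries in all. The strains were BS7.8 (Δku80 Δclr1), BS6.4 (Δku80 Δclr2), JK2.8 (Δku80 Δclr4) and MJK20.3 (Δku80), which the labels call parental, so each of them lacks ku80, a component of non-homologous end joining. The clr2 deletion was made in MJK20.2, a Δku80 strain in which wild-type contamination was later found and from which MJK20.3 was subcultured. For the clr1 and clr4 deletions the legends of the study's Southern blots name MJK20.3. Every mutant is 1 isolate. Mycelium was taken in the exponential state (ex) of the glucose batch phase, in the steady state (SS) of a chemostat limited by glucose, and at t1, t2, t3 and t4, which lie 0.5, 1, 2 and 4 h after a spike of cellulose. The glucose feed ended with the spike, so the addition of cellulose and the end of the feed cannot be told apart in a comparison with SS. The paper reports that in these bioreactors Δclr1 and Δclr2 did not use the cellulose and ceased to grow. Δclr4 and the parental strain grew on it. After the spike, a missing regulator and the end of growth therefore cannot be told apart in Δclr1 and Δclr2. Counts on genes were 6128696 to 16755931 per library in Δclr1, 2567179 to 7182468 in Δclr2, 7534029 to 22212257 in Δclr4 and 3440862 to 6404961 in the parental strain. Each deleted gene was at or near 0 in the strain named for it. The level of clr1 was 0.0 to 1.61 CPM in the 12 Δclr1 libraries, against 38.9 to 452 CPM in the others. That of clr2 was 0.0 to 0.16 CPM in Δclr2, against 1.40 to 2833 CPM in the others, and that of clr4 was 0.0 to 0.12 CPM in Δclr4, against 133 to 308 CPM in the others. The Δclr1 and Δclr4 libraries came from GenomeScan, from RNA that was neither purified nor treated with DNase, and those of Δclr2 and the parental strain from Microsynth, with both steps. Centre and strain therefore cannot be told apart across that split.

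Clr1 and Clr2 are transcription factors of the zinc cluster type that in *Neurospora crassa* are needed to express cellulase genes on cellulose. A fungus that meets cellulose must also secrete these enzymes, and secreted proteins fold in the endoplasmic reticulum (ER), where disulfide isomerases help to form their disulfide bonds. Proteins that fail to fold are moved out of the ER and degraded by the proteasome, a route known as ER-associated degradation (ERAD). Of the 34 members, 12 carry an annotation in the tables that accompany the study. These are 4 genes for carbohydrate-active enzymes (CAZYs), 1 predicted transcription factor, 4 genes with a term for the ER, for ERAD or for disulfide isomerase activity, and 3 with a term for the membrane alone. The other 22 are given here by locus tag. Their sequences were not used here. The tables list only part of the genes of many terms, such as 125 of 1547 for a term for the membrane. A gene absent there is thus not shown to lack a term.

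The values that chose the members are given first, as a description. In the parental strain the median d of the members was 1.82, 1.81, 1.34 and 1.10 at t1, t2, t3 and t4, while the median of the 7661 genes above the level limit was between -0.21 and -0.09 at these times. In Δclr1 the median d was -0.38, -0.40, -0.13 and -0.25, and in Δclr2 it was 0.18, -0.54, -0.24 and -0.15. The mean d in the parental strain ran from 1.02 (MYCTH_2308649) to 2.53 (MYCTH_52068). The nearest gene under the lower limit was MYCTH_2073127 at 0.99, and the nearest above the upper limit was MYCTH_2303328 at 3.13. At 0.5 h the lowest d of a member was 1.03 (MYCTH_83864) and the nearest gene outside, MYCTH_2304975, had 0.996. In the deletion strains the highest d of a member was 0.68 (MYCTH_2295196) and the nearest gene outside, MYCTH_2304302, had 0.72. On the level limit the lowest member was MYCTH_52068 with a highest group mean of 13.0 CPM, and MYCTH_2308086, with 7.93 CPM, was the nearest gene below it. The plot of d over time shows the strains side by side.

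**Figure D1:**
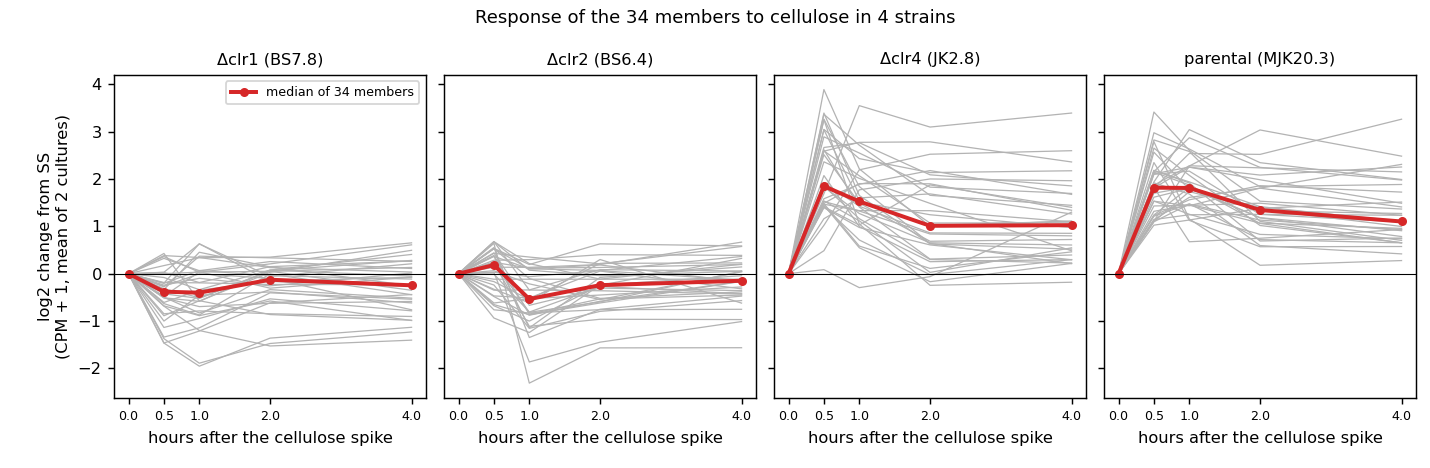
Log2 change from SS, from CPM of library totals plus 1 and the mean of 2 cultures, against hours after the cellulose spike, for the 34 members (grey lines) and their median (red), in Δclr1, Δclr2, Δclr4 and the parental strain. The parental, Δclr1 and Δclr2 values chose the members. The rule held no limit on a Δclr4 response, but MYCTH_2063204 met the level limit through Δclr4 at t1 alone. With this gene included, the Δclr4 medians at t1, t2, t3 and t4 are 1.85, 1.53, 1.01 and 1.02.

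The rule used no response of Δclr4, so its cultures allow a test, with 1 exception. The level limit took the highest mean of any group, and MYCTH_2063204 met it through Δclr4 at t1 alone, with 14.2 CPM, against at most 4.61 CPM in the groups of the other strains. Its Δclr4 values that involve t1 are therefore a description, and counts are also given for the other 33 members. Fewer cells of a type and less RNA per cell cannot be told apart in bulk samples. The module rose in Δclr4 after the spike. At t1, 33 of the 34 members were higher than at SS and 0 were lower, beside 17.9% of all 8565 genes tested that were higher and 22.1% that were lower (edgeR quasi-likelihood test, Benjamini-Hochberg adjusted p under 0.05). Among the other 33 it was 32. Fold changes below carry an SE, their standard error, and adjusted p-values are from this test. At t2, 33 were higher, beside 23.5% of all genes. At t3, 27 were higher, beside 16.1%, and at t4, 26 were higher, beside 8.34%. No member was lower at t2, t3 or t4, where 25.8%, 21.8% and 8.42% of all genes were lower. Over the mean of the 4 times, 33 members were higher, beside 18.2%, and 0 lower, beside 25.7%, with a median log2 fold change of 1.67 (range 0.49 to 5.60), against -0.05 for all genes. Without MYCTH_2063204 that count was 32 of 33. The call was made at every one of the 4 times for 23 members, beside 438 genes or 5.11% of all genes. Levels are given below as CPM normalized by the TMM method, and a library total in place of TMM would move every log2 fold change against SS in Δclr4 by -0.13, -0.30, -0.16 and -0.26 at t1, t2, t3 and t4. With library totals 32, 32, 24 and 23 members were higher at these times and 0 lower, beside 13.7%, 14.3%, 11.5% and 5.69% of all genes that were higher and 28.1%, 38.8%, 30.7% and 28.9% that were lower.

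The levels of the cultures show the same separation. Both Δclr4 cultures stood above both SS cultures for 29 members at t3, beside 31.9% of all genes, and for 33 at each of t1, t2 and t4, beside 32.1%, 37.0% and 23.6%. At t1 these were 32 of the 33 members other than MYCTH_2063204. The summed level of the 34 members was 2934 and 3001 CPM at SS in the cultures of Δclr4, 23059 and 23964 CPM at t1, 13099 and 11372 CPM at t2, 6654 and 6790 CPM at t3, and 6707 and 7281 CPM at t4. A single gene, MYCTH_2315513, made up 59.0% and 52.6% of that sum at t1 and 30.8% and 23.4% at SS. The sum was above SS in both cultures at each time, and the most abundant member held much of it.

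**Figure D2:**
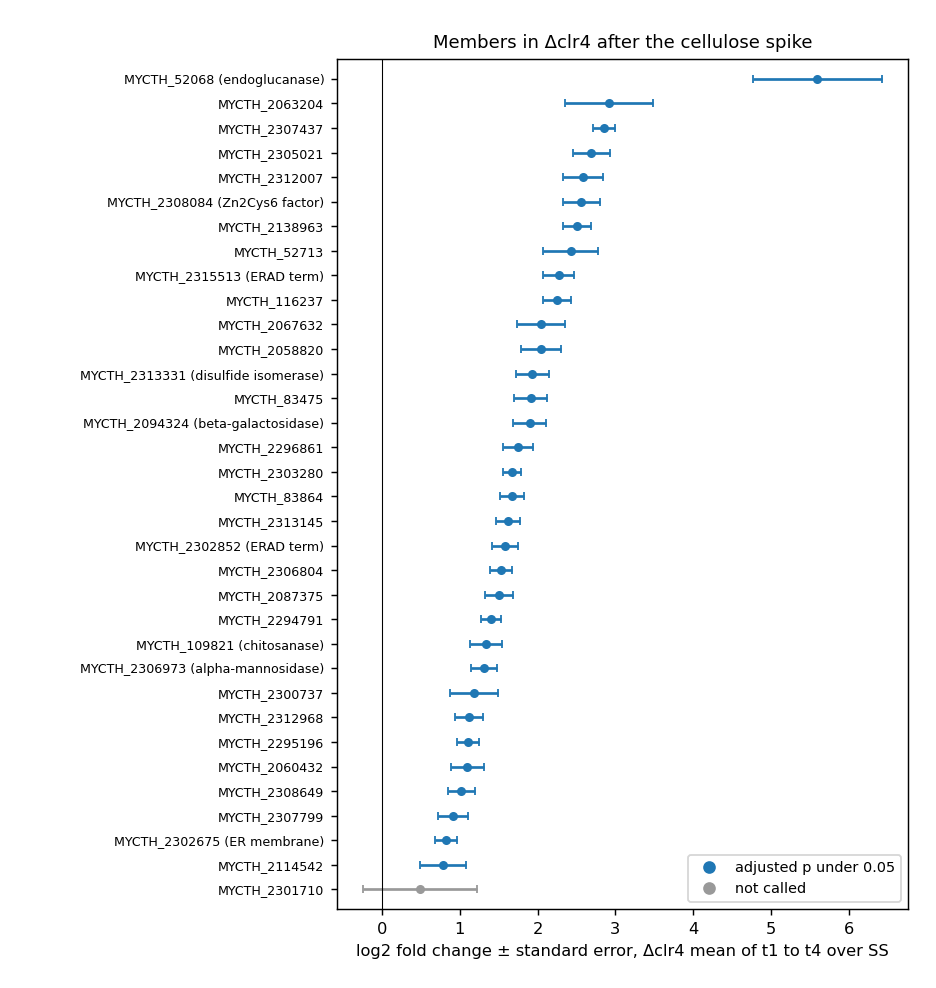
Log2 fold change of the mean of t1 to t4 over SS in Δclr4 with its SE, for each of the 34 members, with annotations in brackets. The 33 called members lie between 0.78 and 5.60, MYCTH_2301710 at 0.49 was not called, and the value of MYCTH_2063204, 2.92, is a description.

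The members with terms of the ER rose early. MYCTH_2315513 (chromosome 4, 1873120 to 1876203 of assembly ASM22609v1) is annotated with ATPase activity and ERAD, and was the most abundant member. Its level was 13610 and 12617 CPM at t1 in the Δclr4 cultures, against 905 and 703 CPM at SS, with no overlap (log2 fold change 4.03, SE 0.24, adjusted p = 4.0e-15 in edgeR). It then stood at 5261 and 3937 CPM at t2, 1963 and 1634 CPM at t3 and 2124 and 2045 CPM at t4, all above SS. MYCTH_2302852 (chromosome 2, 5046675 to 5048319), also annotated with ERAD, had 321 and 364 CPM at t1, against 48.6 and 58.9 CPM at SS (log2 fold change 2.67, SE 0.20, adjusted p = 1.1e-12). At t4 it had 108 and 106 CPM, still above both SS cultures.

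MYCTH_2313331 (chromosome 1, 1271297 to 1274173), annotated with protein disulfide isomerase activity, had 260 and 363 CPM at t1 and 268 and 215 CPM at t2 in Δclr4, against 48.6 and 43.5 CPM at SS. The change at t1 was 2.75 on the log2 scale (SE 0.24, adjusted p = 7.4e-11), and at t4 the cultures had 121 and 114 CPM. MYCTH_2302675 (chromosome 2, 4832125 to 4834114), with terms for the ER membrane and the Golgi membrane, responded least of this group. Its level was 147 and 154 CPM at t1, against 54.5 and 46.8 CPM at SS, and it was back at 57.5 and 54.2 CPM at t3, where it was not called. Its call at t4 (log2 fold change 0.56) was lost when any one of t4 replicate 1, t4 replicate 2 or SS replicate 2 was left out and with library totals.

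The study's tables give further genes with the terms of these members, listed there because they changed in these samples, so their directions are not independent evidence. The tables list 4 of the 17 genes of the ERAD term, 3 of the 4 with disulfide isomerase activity and 5 of the 18 of the ER membrane term. In Δclr4 all of those listed had a higher average of t1 to t4 than SS, 4 of 4, 3 of 3 and 5 of 5, beside 18.2% of all genes. For ATPase activity, the other term of MYCTH_2315513, the tables list 16 of 38 genes, of which 1 was higher and 14 were lower, with a median log2 fold change of -1.01. The ERAD genes outside the module, MYCTH_2294863 and MYCTH_2295930, had log2 fold changes of 1.05 and 0.76, against 2.27 and 1.58 for the 2 that belong to it. Those 2 were chosen for a rise in the parental strain, which favoured larger values. Of the disulfide isomerase genes, MYCTH_2296005 and MYCTH_2295433 had 2.74 and 2.00, and the member MYCTH_2313331 had 1.93.

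Among the CAZY members, the polysaccharide-degrading enzymes differed in level and timing. MYCTH_52068 (chromosome 4, 188041 to 189524), a predicted endoglucanase of family GH5 that cuts within cellulose chains, had the largest mean response of the module and one of its lowest levels. In Δclr4 it had 0.12 and 0.24 CPM at SS, which are 2 counts in each library, 1.82 and 4.05 CPM at t1, 6.96 and 23.1 CPM at t2, 8.13 and 11.3 CPM at t3 and 7.18 and 18.6 CPM at t4. The pooled counts gave ratios over SS of 16.7 at t1 (95% exact interval 6.29 to 62.4) and 69.7 at t4 (26.8 to 258), where the intervals cover counting error only. The fitted log2 fold change of the mean was 5.60 (SE 0.83, adjusted p = 2.8e-06) and rests on those few SS counts. Its mean d of 2.53 in the parental strain was made with 1 CPM added, where the SS libraries held 3 and 1 counts. The parental levels were 0.59 and 0.24 CPM at SS and 13.6 and 14.5 CPM at t4. The added 1 CPM is above both SS levels, so d is smaller than the rise of the levels themselves. A pseudocount of 0.5 or 5, or a level limit of 20 CPM, left out this gene, the only member on the cellulase list.

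MYCTH_2094324 (chromosome 4, 3361070 to 3363839) encodes a predicted beta-galactosidase of family GH2, an enzyme that removes galactose from sugar chains. It had 9.53 and 12.2 CPM at t1 in Δclr4, against 6.05 and 7.58 CPM at SS, the smallest response at t1 of any called member (log2 fold change 0.68, SE 0.24, adjusted p = 0.024). That call was lost without t1 replicate 2, without SS replicate 1 and with library totals. By t2 it had 32.7 and 30.1 CPM and by t4 29.8 and 40.3 CPM, well apart from SS.

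MYCTH_109821 (chromosome 6, 2375987 to 2378765) is a predicted chitosanase of family GH75 that the study's tables place among enzymes of cell wall remodelling. Chitosan is a polymer of fungal cell walls. It was the most abundant CAZY member, with 1862 and 2982 CPM at t1 and 2055 and 2666 CPM at t2 in Δclr4, against 577 and 955 CPM at SS. The mean response was 1.34 on the log2 scale (SE 0.21, adjusted p = 3.0e-06), and the calls at t3 and t4 were each lost without SS replicate 1 and without replicate 2 of the time itself. MYCTH_2306973 (chromosome 4, 2721440 to 2724285), a predicted alpha-mannosidase of family GH92, had 191 and 190 CPM at t1, against 51.8 and 43.9 CPM at SS (log2 fold change 1.99, SE 0.20, adjusted p = 8.4e-10).

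These 4 genes come from larger lists in the study's tables. For the average of t1 to t4 against SS in Δclr4, 34 of the 46 cellulase genes tested were called higher and 3 lower, with a median log2 fold change of 6.07, so the GH5 member at 5.60 lay below the median of its list. Of 62 hemicellulase genes, 31 were higher and 6 lower with a median of 0.76, against 1.90 for the beta-galactosidase and 1.32 for the alpha-mannosidase. Of 33 genes of cell wall remodelling, 6 were higher and 16 lower with a median of -0.18, and the chitosanase at 1.34 was 1 of the 6. The members were chosen for a rise in the parental strain, which favoured values above the medians of these lists.

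The module holds 1 predicted transcription factor gene. MYCTH_2308084 (chromosome 5, 824469 to 826668) carries a fungal Zn(2)-Cys(6) cluster domain, the DNA-binding domain that Clr1 and Clr2 also have, and its best match in the study's table is given as sterigmatocystin biosynthesis. It had 184 and 249 CPM at t1 and 178 and 129 CPM at t2 in Δclr4, against 18.3 and 18.2 CPM at SS, with no overlap between cultures (log2 fold change at t1 3.57, SE 0.27, adjusted p = 1.6e-12). At t3 it had 68.2 and 64.7 CPM and at t4 53.9 and 68.6 CPM. Among 97 genes of this class tested, 25 had a higher average of t1 to t4 than SS and 13 a lower one, with a median log2 fold change of 0.11, against 2.56 for MYCTH_2308084. The member was chosen for a rise in the parental strain, which favoured a value above the median of its class.

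Of the 10 members with the highest mean responses, 7 carry no annotation in the study's tables. MYCTH_2307437 (chromosome 4, 3688595 to 3690442) had 75.4 and 91.4 CPM at SS in Δclr4, 480 and 632 CPM at t1, 729 and 689 CPM at t2, 615 and 686 CPM at t3 and 468 and 566 CPM at t4. Its mean log2 fold change of 2.86 had an SE of 0.14 (adjusted p = 2.4e-17). Of the 10 highest mean responses it had the smallest SE, and both cultures stayed above SS at each time. MYCTH_2305021 had 325 and 353 CPM at t1 and 197 and 206 CPM at t4, against 35.5 and 37.5 CPM at SS (mean log2 fold change 2.69, SE 0.24). MYCTH_2312007 had 219 and 422 CPM at t1 and 126 and 268 CPM at t4, against 41.0 and 49.0 CPM at SS, so its 2 cultures stood well apart from each other (mean 2.59, SE 0.25). MYCTH_2138963 had 159 and 218 CPM at t1 and 85.0 and 93.1 CPM at t4, against 22.6 and 22 CPM at SS (mean 2.50, SE 0.18). The 10 highest mean responses were completed by MYCTH_52713 at 2.42, MYCTH_116237 at 2.25 and MYCTH_2063204 at 2.92, of which the last rests on the t1 level that admitted it.

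A further 8 members had middling responses. MYCTH_2313145 had 246 and 266 CPM at t1 in Δclr4, against 65.8 and 62.3 CPM at SS (mean log2 fold change 1.62, SE 0.15). MYCTH_83475 had 356 and 409 CPM at t1, against 42.6 and 40.4 CPM at SS, and 116 and 101 CPM at t4 (mean 1.91, SE 0.22). MYCTH_2087375 had 87.1 and 137 CPM at t1, against 27.2 and 24.9 CPM at SS (mean 1.51, SE 0.18). In these 3 the cultures of t1 and SS did not overlap. MYCTH_2303280, MYCTH_2058820, MYCTH_83864 and MYCTH_2306804, which has a term for the membrane, had log2 fold changes of t4 over t1 between -0.25 and 0.23 and were not called there. For MYCTH_2303280 the levels were 74.6 and 76.8 CPM at t1 and 93.7 and 83.8 CPM at t4, with 30.6 and 30.1 CPM at SS. MYCTH_83864 peaked at t3, with 161 and 169 CPM, against 35.1 and 44 CPM at SS. MYCTH_2295196, the member nearest the limit in the deletion strains, had 289 and 299 CPM at t1, against 79.6 and 67.4 CPM at SS (log2 fold change 2.00, SE 0.17), and its calls at t3 and t4 were lost without SS replicate 2, without either replicate of the time and with library totals.

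The 5 lowest mean responses include that of MYCTH_2302675, at 0.82. MYCTH_2308649 had a mean log2 fold change of 1.02, MYCTH_2307799, with a term for the membrane, 0.91, and MYCTH_2114542 0.78. The last of these had 11.8 and 13.0 CPM at t1 in Δclr4, against 3.74 and 3.37 CPM at SS, and 2.74 and 4.13 CPM at t3. Its call over the mean (adjusted p = 0.031) was lost without SS replicate 1, without SS replicate 2, without replicate 2 of t2, t3 or t4, with library totals and in a fit of the Δclr4 strain alone. MYCTH_2301710 was the only member with no call against SS at any time. It had 3.92 and 1.17 CPM at t1 and 11.6 and 4.42 CPM at t4 in Δclr4, against 2.61 and 1.68 CPM at SS (mean log2 fold change 0.49, SE 0.73, adjusted p = 0.63). In the parental strain, which chose it, the cultures were far apart, with 39.6 and 8.08 CPM at t1 and 28.9 and 4.35 CPM at t2, against 3.34 and 2.16 CPM at SS.

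Most members peaked early in Δclr4 and came down within 4 h, a pattern that the choice favoured. The rule asked for a d of at least 1 at t1 in the parental strain and set no such limit at t4. In Δclr4, 24 members were lower at t4 than at t1, beside 17.5% of all genes, and 3 were higher, beside 18.4%, with a median log2 fold change of -0.99 against -0.03 for all genes. Without MYCTH_2063204, 23 of 33 were lower. With library totals 24 members were again lower and 3 higher, beside 24.3% and 14.6% of all genes. After the spike, t1 held the highest mean level of 23 members, t2 that of 6, t3 that of 2 and t4 that of 3. In the parental strain, whose values chose the members, these counts were 13, 14, 3 and 4. Shares over all genes were not counted for these peaks. The log2 differences between t4 and t1 of the 34 members had a Spearman correlation of 0.81 and a Pearson correlation of 0.79 between Δclr4 and the parental strain, given as a description over genes chosen for their response.

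The steepest falls tested were those of MYCTH_2300737, MYCTH_2296861, MYCTH_2315513 and MYCTH_2294791. MYCTH_2300737 (chromosome 2, 1550088 to 1551239) had 123 and 121 CPM at t4, against 1296 and 1140 CPM at t1 (log2 fold change -3.32, SE 0.39, adjusted p = 1.1e-07), and its SS cultures had 133 and 97.2 CPM, so at t4 it lay within their range. Its call over the mean of the 4 times (1.18) was lost without SS replicate 2. MYCTH_2296861 had 22.5 and 19.0 CPM at t4, against 162 and 169 CPM at t1 (-2.98, SE 0.23). MYCTH_2294791, with a term for the membrane, had 190 and 196 CPM at t4, against 822 and 837 CPM at t1 (-2.10, SE 0.15). MYCTH_2063204 had 1.22 and 1.18 CPM at t4, against 17.7 and 11.4 CPM at t1, given with no test since that t1 level admitted it. All 4 members with ER, ERAD or disulfide isomerase terms were among the 24, with log2 fold changes of -2.65 (MYCTH_2315513), -1.68 (MYCTH_2302852), -1.40 (MYCTH_2313331) and -1.01 (MYCTH_2302675).

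The 3 members that were higher at t4 than at t1 include 2 of the 4 CAZYs. MYCTH_52713 (chromosome 4, 3886901 to 3887971) had 59.6 and 59.3 CPM at t4, against 16.1 and 19.0 CPM at t1 (log2 fold change 1.76, SE 0.37, adjusted p = 0.00034). Its call at t1 against SS (1.24) was lost without t1 replicate 2 or either SS replicate. The beta-galactosidase gene MYCTH_2094324 had a log2 fold change of 1.69 (SE 0.23, adjusted p = 8.6e-07). The endoglucanase gene MYCTH_52068 had 2.14 (SE 0.60, adjusted p = 0.0058), with no overlap between the cultures of t4 and t1, and this call was lost without t1 replicate 1 (1.64) and without t4 replicate 2 (1.32). The chitosanase and the alpha-mannosidase were lower at t4 than at t1, at -0.61 (SE 0.24, adjusted p = 0.048) and -1.11 (SE 0.19, adjusted p = 2.9e-05). The chitosanase call was lost without t1 replicate 2, without t4 replicate 1 and in a fit of the Δclr4 strain alone, and the same 3 settings ended the call of MYCTH_2312007 (-0.70).

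**Figure D3:**
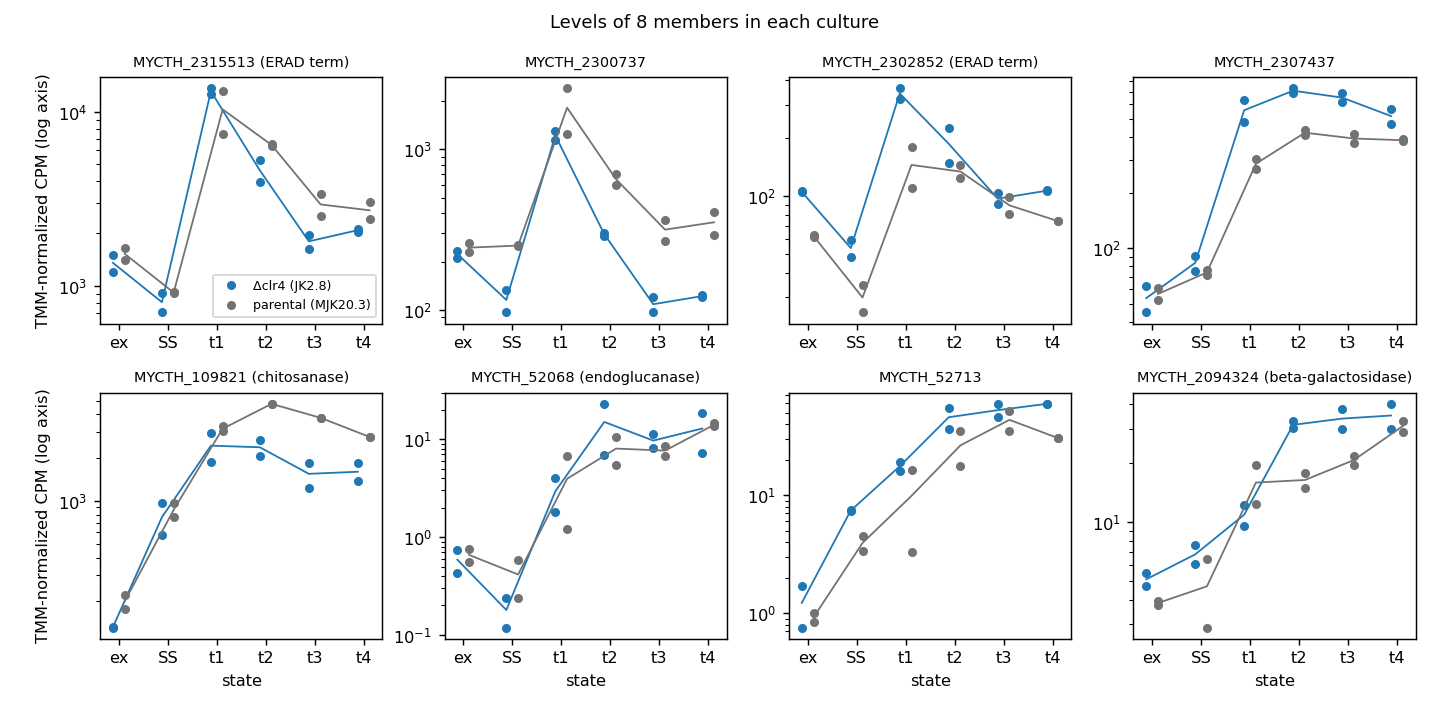
TMM-normalized CPM on a log axis in each of 2 cultures (points) and their mean (lines) of Δclr4 and the parental strain, in ex, SS and t1 to t4, for 8 members. MYCTH_2315513, MYCTH_2300737 and MYCTH_2302852 peak at t1, MYCTH_2307437 stays above SS, and MYCTH_52068, MYCTH_52713 and MYCTH_2094324 are higher at t4 than at t1.

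Exponential growth on glucose was compared with SS in the same strain. In Δclr4, 12 members were higher at ex than at SS, beside 25.6% of all genes, and 9 were lower, beside 22.1%, with a median log2 fold change of -0.08 against 0.04 for all genes. These are 35.3% and 26.5% of the members, near the shares of all genes. Without ex replicate 2 the 12 became 7, and without ex replicate 1 the 9 became 4. Library totals in place of TMM moved each of these fold changes by -0.23 and turned the balance of calls, with 8 members higher and 13 lower, beside 15.2% and 31.2% of all genes.

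The members that were higher at ex included 3 of the 4 with ER, ERAD or disulfide isomerase terms, beside 25.6% of all genes. MYCTH_2302852 had 106 and 105 CPM at ex, against 48.6 and 58.9 CPM at SS (log2 fold change 0.98, SE 0.19, adjusted p = 9.9e-05). MYCTH_2302675 had 108 and 99.7 CPM at ex, against 54.5 and 46.8 CPM at SS (1.03, SE 0.17). MYCTH_2315513 had 1206 and 1499 CPM at ex, against 905 and 703 CPM at SS (0.75, SE 0.21), a call lost without SS replicate 2 or ex replicate 2. MYCTH_2313331, with the disulfide isomerase term, had 44.5 and 46.7 CPM at ex, against 48.6 and 43.5 CPM at SS. The largest difference was that of MYCTH_2114542, with 19.3 and 22.6 CPM at ex, against 3.74 and 3.37 CPM at SS (2.55, SE 0.34), and its ex level was above its level at every time on cellulose.

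Those that were lower at ex included the genes for the chitosanase, the alpha-mannosidase (log2 fold change -0.53, a call lost without SS replicate 1 or ex replicate 1) and the transcription factor. The chitosanase gene MYCTH_109821 had 132 and 130 CPM at ex, against 577 and 955 CPM at SS (log2 fold change -2.55, SE 0.25, adjusted p = 7.1e-10). MYCTH_52713 had 0.75 and 1.69 CPM at ex, against 7.36 and 7.46 CPM at SS (-2.50, SE 0.49, adjusted p = 0.00011). The transcription factor gene MYCTH_2308084 had 11.6 and 11 CPM at ex, against 18.3 and 18.2 CPM at SS (-0.69, SE 0.27, adjusted p = 0.034), a call lost when any one of the 4 libraries was left out.

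Relative to exponential growth, 24 members were higher at t4 in Δclr4, beside 25.7% of all genes, and 4 were lower, beside 31.8%. The largest differences were those of MYCTH_52713 at 5.50 on the log2 scale, the endoglucanase at 4.33 and the chitosanase at 3.61. MYCTH_2307437 had 468 and 566 CPM at t4, against 45.1 and 62.5 CPM at ex (3.26, SE 0.16). The 4 lower ones were MYCTH_2114542, MYCTH_2300737, MYCTH_2312968 and MYCTH_2302675, at -2.09, -0.87, -0.49 and -0.47. Without any one of t4 replicate 1, t4 replicate 2 or ex replicate 1 only 1 of these 4 calls was left, and without ex replicate 2 there were 2. Over the 34 members the fold changes of t4 over t1 and of ex over SS, which share no library, had a Spearman correlation of -0.18 and a Pearson correlation of -0.18, against 0.05 and -0.0025 over 8565 genes. Of the 24 members that were lower at t4 than at t1, 9 were higher at ex than at SS and 5 lower, beside 25.6% and 22.1% of all genes tested. The shares among all genes that were lower at t4 than at t1 were not counted.

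**Figure D4:**
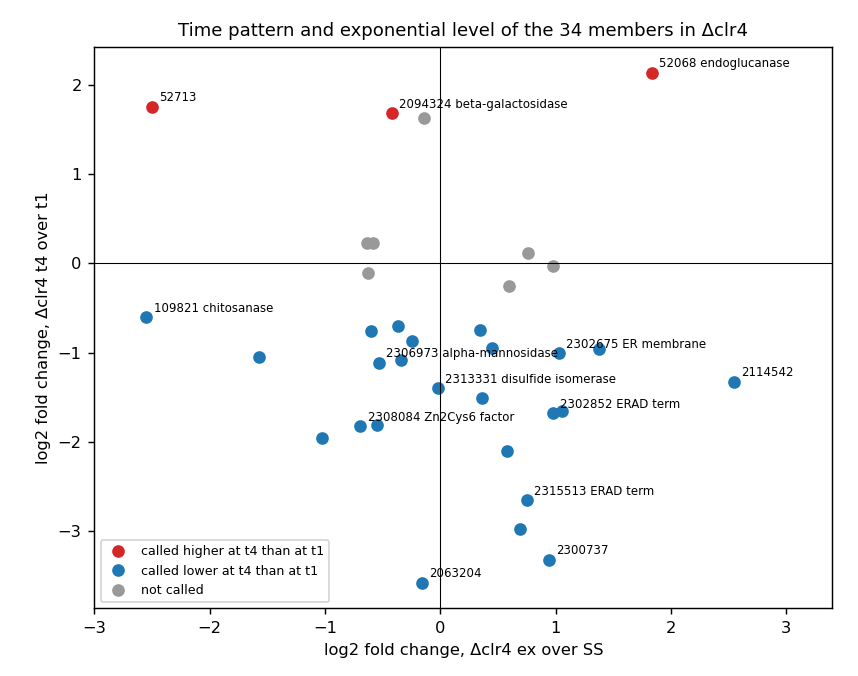
Log2 fold change of t4 over t1 against that of ex over SS in Δclr4 for the 34 members, coloured by the call of t4 against t1 (red higher, blue lower, grey not called). On ex over SS the points run from the chitosanase at -2.55 to MYCTH_2114542 at 2.55, and 24 of the 34 are called lower at t4 than at t1.

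The levels of members after the spike in Δclr1 and Δclr2 are a description, since the rule used them. At t1, t2, t3 and t4, both cultures lay under both SS cultures for 19, 20, 16 and 21 members in Δclr1, beside 37.7%, 37.6%, 37.5% and 37.8% of all genes tested. In Δclr2 they did so for 9, 22, 20 and 23 members, beside 37.0%, 39.6%, 37.9% and 40.2%. Both cultures lay above both SS cultures for 4, 4, 0 and 3 members in Δclr1, beside 34.2%, 33.1%, 35.9% and 36.4%, and for 12, 4, 1 and 3 in Δclr2, beside 39.4%, 39.5%, 35.9% and 37.8%. In Δclr2 at t1 these are 35.3% of the members above and 26.5% below, both under the shares of all genes. The summed level of the members in Δclr1 was 3266 and 3051 CPM at SS, 2109 and 1797 CPM at t1, and 1643 and 1494 CPM at t2. In Δclr2 it was 3695 and 3395 CPM at SS, 4717 and 3997 CPM at t1, and 1675 and 1726 CPM at t2. By this sum the Δclr2 cultures lay above SS at t1 and below it at t2, while those of Δclr1 were below SS at both. Within the Δclr2 sum, MYCTH_2315513 alone had 1157 and 894 CPM at SS and 1745 and 1311 CPM at t1. For 24 members the highest mean level after the spike in Δclr2 was at t1, and for 0 at t2, with no share over all genes counted.

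MYCTH_2315513 had the lowest d of any member, at -2.31 in Δclr2 and -1.96 in Δclr1, both at t2. In Δclr2 it had 1157 and 894 CPM at SS, 1745 and 1311 CPM at t1, 195 and 195 CPM at t2, and 260 and 286 CPM at t4. In Δclr1 it had 827 and 755 CPM at SS, 313 and 268 CPM at t1, 207 and 171 CPM at t2, and 337 and 286 CPM at t4. The endoglucanase MYCTH_52068 had 0 counts in all 8 Δclr2 libraries after the spike, which allows up to 0.39 to 0.65 CPM per library (3 counts), and at most 0.68 CPM in those of Δclr1. MYCTH_2302675 had 15 and 11.9 CPM at t2 in Δclr1, against 55.9 and 56.8 CPM at SS, and 22.7 and 23.5 CPM at t2 in Δclr2, against 54.2 and 56.5 CPM at SS. The gene for clr2 itself, as a point of reference, had 2100 and 2245 CPM at t1 in Δclr4, against 16.1 and 13.0 CPM at SS.

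On glucose, 1 member was called between strains that share a sequencing centre. Between Δclr2 and the parental strain at ex, 0 members were called higher and 0 lower, beside 0.0% of all genes in either direction in edgeR. The deleted gene clr2 was thus not called either, so 0 calls here do not show that the members were unchanged. The Wald test of DESeq2 also called 0 genes, and at an unadjusted p under 0.05 edgeR had 384 genes and 0 members. The members' log2 fold changes were -1.09 to 0.30 with a median of 0.03. Between Δclr1 and Δclr4 at ex, 1 member was higher, beside 0.0234% of all genes, and 0 were lower, beside 0.0117%. The 2 higher genes among all 8565 were clr4, deleted in one of the strains, and MYCTH_116237, and the lower one was clr1.

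MYCTH_116237 (chromosome 4, 3359352 to 3360820) had 12.1 and 8.94 CPM at ex in Δclr1, against 2.91 and 3.11 CPM in Δclr4 (log2 fold change 1.79, SE 0.22, adjusted p = 8.8e-06), and no alternative ended the call. Its levels at ex were 7.38 and 7.12 CPM in Δclr2 and 6.16 and 7.03 CPM in the parental strain, so the 2 Δclr4 libraries were the lowest of the 8. At SS the Δclr4 libraries were again the lowest, with 13.1 and 16.1 CPM in Δclr1, 11.8 and 12.4 CPM in Δclr2, 4.33 and 4.81 CPM in Δclr4 and 13.2 and 13.9 CPM in the parental strain, given with no test. After the spike it rose in Δclr4 to 29.1 and 24.5 CPM at t3, against 4.33 and 4.81 CPM at SS (log2 fold change 2.55). The parental cultures had 43.0 and 45.2 CPM at t3.

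Levels at ex were also set side by side between the centres. For 9 members the 4 GenomeScan libraries of ex (Δclr1 and Δclr4) were all above the 4 Microsynth libraries (Δclr2 and parental), and for 9 they were all below, beside 32.3% and 29.0% of all genes. MYCTH_2114542 had 19.3 and 22.6 CPM in Δclr4 and 22.2 and 19.6 CPM in Δclr1, against 72.1 and 86.4 CPM in Δclr2 and 81.2 and 67.0 CPM in the parental strain. MYCTH_2312968 had 594 and 602 CPM in Δclr4 and 621 and 581 CPM in Δclr1, against 293 and 302 CPM in Δclr2 and 291 and 293 CPM in the parental strain. The levels of Δclr4 and the parental strain in the plot of 8 members therefore differ in centre as well as in clr4.

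Some members are neighbours in the genome, which the rule did not use, and the share of such pairs over all genes was not counted. MYCTH_116237 and the beta-galactosidase gene MYCTH_2094324 follow each other on chromosome 4 with 250 bp between them. The transcription factor gene MYCTH_2308084 lies 780 bp from MYCTH_2067632 on chromosome 5, and MYCTH_2060432 lies 976 bp from MYCTH_2305021 on chromosome 3. Of the last pair, MYCTH_2060432 had 21.3 and 24.8 CPM at t1 in Δclr4, against 8.07 and 6.74 CPM at SS (log2 fold change 1.62, SE 0.25), beside a log2 fold change of 3.22 for MYCTH_2305021. MYCTH_2067632 had 19.7 and 26.4 CPM at t1, against 2.91 and 3.73 CPM at SS (log2 fold change 2.81, SE 0.35), beside 3.57 for the transcription factor gene next to it. Chromosome 4 holds 10 of the 34 members, or 29.4%, and 11.8% of all genes. Whether the counting used strand is not given in the sources used here, so reads may have been shared where genes overlap. The gene spans of the pairs named here do not overlap.

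Levels between members are compared per kilobase of gene span, introns included. Over t1 to t4 in Δclr4, MYCTH_2315513 had 1751 CPM per kb and the chitosanase 712, followed by MYCTH_2300737 with 379, MYCTH_2307437 with 329 and MYCTH_2294791 with 270. The lowest were MYCTH_2063204 with 2.81 and MYCTH_2301710 with 3.01. The median level of the members was 127 CPM, against 33.7 CPM for all 9292 genes, and the 34 genes together took 1.14% of all CPM over these 8 libraries. The rule asked members for a group mean of 10 CPM and for a rise, and the 9292 genes did not have to meet these limits. The higher median was thus favoured by the choice.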

How the data were processed

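Reads of 48 libraries were checked (FastQC), trimmed where needed (BBTools) and aligned with STAR to assembly ASM22609v1 by the authors. Versions and the counting program are not given in the sources used here. The deposited table holds raw counts per gene as the authors made them. Their tables of normalized values, fold changes and p-values were not used. GEO lists 49 samples because 1 library (Δclr4, t4) was sequenced on 2 flow cells. Its single column was 1 replicate.

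Counts of 9292 genes were filtered with filterByExpr (minimum count 10), which left 8565, and were normalized by TMM. A quasi-likelihood model of edgeR 4.0.16 (limma 3.58.1, R 4.3.3) had 24 groups of 2 cultures and 24 residual degrees of freedom. The SE of a fold change is its size over the root of F. The p-values were adjusted by the Benjamini-Hochberg method over all tested genes in each of 10 contrasts, and contrasts with values that the rule used were not tested. The members and lists were chosen with earlier results of these data known. Alternatives were the Wald test and the size factors of DESeq2 1.42.0, library totals and counts without MYCTH_2063204 (both added after seeing the data), no filter, single strains, no ex libraries, a replicate block, a fold limit, other settings of the rule and omission of each library. Scripts were tested on simulated data.

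Named members follow a rule: the 10 highest and 5 lowest mean responses, the 10 highest levels, the 5 highest and 5 lowest called changes of t4 over t1, members of lists, those nearest a limit and those called at ex between strains. The others were chosen after their values were seen. Libraries with the same number within a strain come from 1 bioreactor culture, which pairs them. Their residuals correlated with a median r of 0.248 in Δclr4. Chromosome positions are from a RefSeq gene table of ASM22609v1. Promoters and roles by product name were not analysed here. Figures were drawn with matplotlib 3.10.9.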

Additional observations from a re-analysis of the deposited data

How the results depend on the processing

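The 10 comparisons gave 229 calls of members. Of these, 188 were kept under every alternative run other than the fold limit, 41 were lost under at least 1, and none turned its direction. With the limits of the choice applied to TMM-normalized CPM there were 56 genes in place of 34, all 34 members among them. A pseudocount of 0.5 gave 33 genes, 31 of them members, a pseudocount of 5 gave 35, 24 of them members, and a level limit of 20 CPM gave 32, all members, so membership depends on the pseudocount. Of the 12 members higher at ex than at SS in Δclr4, 4 had an absolute log2 fold change of at least 1, and leaving out a library gave 7 to 12. Of the 9 lower ones, 4 passed that fold limit. Library totals gave 8 higher and 13 lower. Counting without MYCTH_2063204 (added after seeing the data) changed no count of members by more than 1. The 4 members lower at t4 than at ex became 2 with the size factors of DESeq2 and 2 in a fit of the strain alone. Leaving out a library gave 31 to 33 higher members at t1, 31 to 33 at t2, 23 to 26 at t3 and 21 to 24 at t4. With the replicate block these counts were 33, 33, 27 and 28, and the block ended 1 call, that of MYCTH_116237 at ex against SS. Where 1 library was left out of a group, the lone sample was assumed to vary like the other groups. With 2 cultures per group, the precision of the least abundant members was limited by their counts.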
